A study of Mus musculus with 46 samples.

Results

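Allele balance that depended on the direction of a cross was examined in the dorsal raphe nucleus of mice at postnatal day 15 (P15). The members are autosomal genes with a mean summed count (both alleles, averaged over animals) of 20 or more, which 11362 of the 15499 genes in the count tables were. In 69 of these 11362 genes (0.607%) the ratio of CAST to C57 counts differed between the crosses, at an adjusted p of 0.05 in the edgeR quasi-likelihood test with Benjamini-Hochberg adjustment. Of the 69, 22 were complete, which means that the favoured allele held 95% or more of the counts on average in both crosses, 46 were partial and 1 had too few counts in 1 cross to be placed.

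The series holds 46 RNA-seq libraries of female F1 hybrids between the strains C57 and CAST, and 14 of them are from P15. Every animal carries 1 C57 and 1 CAST copy of each autosome, and the groups F1i and F1r, with 7 animals each, are the reciprocal crosses. The labels give no genotype beyond the cross, no treatment, and no statement of which parent was CAST in either cross. The other libraries, 14 from postnatal day 5 (P5) and 18 from adults, are used only where P15 is set against them.

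In genomic imprinting, one allele of a gene is silenced according to the parent it came from, through methylation marks laid down in the egg or the sperm. Imprinted genes lie in clusters that share a control region, and many of them act in growth, feeding and maternal care, which the hypothalamus and the monoamine cell groups of the brainstem serve. The raphe holds the serotonin neurons of the forebrain projection, beside glia and other neurons, so a library mixes cell types, and a bias in some of its cells cannot be told apart from a weaker bias in all of them.

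Depth was 3692778 to 8032987 counts per animal. The defining serotonin genes were present in every animal, with Tph2 (serotonin synthesis) at 451.9 to 623.1 CPM in F1i and 404.0 to 801.3 in F1r, where CPM is the count of both alleles scaled to the size of the library. Of 47 tested genes from 9 cell type marker lists, 0 differed in total between the crosses at an adjusted p of 0.05 (edgeR quasi-likelihood test, Benjamini-Hochberg), and 1 did under DESeq2, the haemoglobin gene Hbb-bt. At an unadjusted p of 0.05, 1 microglial, 1 endothelial and both tested blood genes did, and the blood list summed to 102.2 to 151.4 CPM in F1i and 141.4 to 193.1 in F1r. The CAST share of all autosomal counts was 51.3% to 51.5% in F1i and 49.9% to 50.0% in F1r, and without 4 pseudogene loci that resemble mitochondrial sequence it was 50.05% to 50.14% and 49.89% to 50.04%. F1i replicates 1 and 2 stood apart in their gene totals, with a chi-square per degree of freedom of 2.98 between them, 17.8 to 21.6 against replicates 3, 4, 6 and 7 and 9.09 to 10.6 against replicate 5. Without F1i replicates 1 and 2, 68 genes passed the test of allele ratios described here, 64 of the 69 among them, and Cobl, Commd1, Fam135b, Src and Wdr25 did not. F1i replicate 5 was at 8.90 to 10.1 against replicates 3, 4, 6 and 7. In F1r, replicates 5 and 6 were at 1.78 between them, 16.0 and 14.5 against replicate 1, and 11.7 and 10.6 against replicate 3. Against replicates 2, 4 and 7 they were at 4.02 to 8.81, and leaving both out was not tested.

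For every gene the log2 ratio of CAST to C57 counts in F1i, less that in F1r, was divided by 2 to give a parental effect, and a positive value means more CAST in F1i and more C57 in F1r. Of the 69 genes, 37 (0.326% of those tested) had a positive effect and 32 (0.282%) a negative one. Meg3, a long noncoding RNA known for expression from the maternal copy, was among the first, and Peg3, a zinc finger gene known for expression from the paternal copy, among the second. The directions are called the Meg3 side and the Peg3 side below. Over all autosomal genes tested the median effect was 0 and 551 genes had an unadjusted p under 0.05.

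Lists of known imprinted genes and of genes at imprinted loci, with 90 names of which 62 were tested, held 45 of the 69. Thus 45 of 62 listed genes passed, against 0.607% of all autosomal genes tested. The lists were chosen with earlier results of these data known, so the counts by list are descriptive and not an independent test. Among 25 tested genes listed as maternally expressed, 16 fell on the Meg3 side and 1 on the Peg3 side, with a median effect of 0.63. Among 24 listed as paternally expressed, 3 fell on the Meg3 side and 20 on the Peg3 side, with a median of -5.25. Both medians are the same when genes with an allele at 0 are entered at their bound. The exceptions were Commd1 in the first list and Igf2, Nespas and Rtl1 in the second. Commd1 did not pass under DESeq2. It overlaps Zrsr1, a complete gene of the Peg3 side, on the opposite strand, and the reads of this pair cannot be told apart here. The 17 listed genes that did not pass had effects between -0.23 (Atp10a) and 0.16 (Cep41). They include 3 GABA receptor subunit genes beside Ube3a, of which Gabra5 had -0.17 ± 0.05 (SE) with an adjusted p of 0.172 (edgeR quasi-likelihood, Benjamini-Hochberg).

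**Figure D1:**
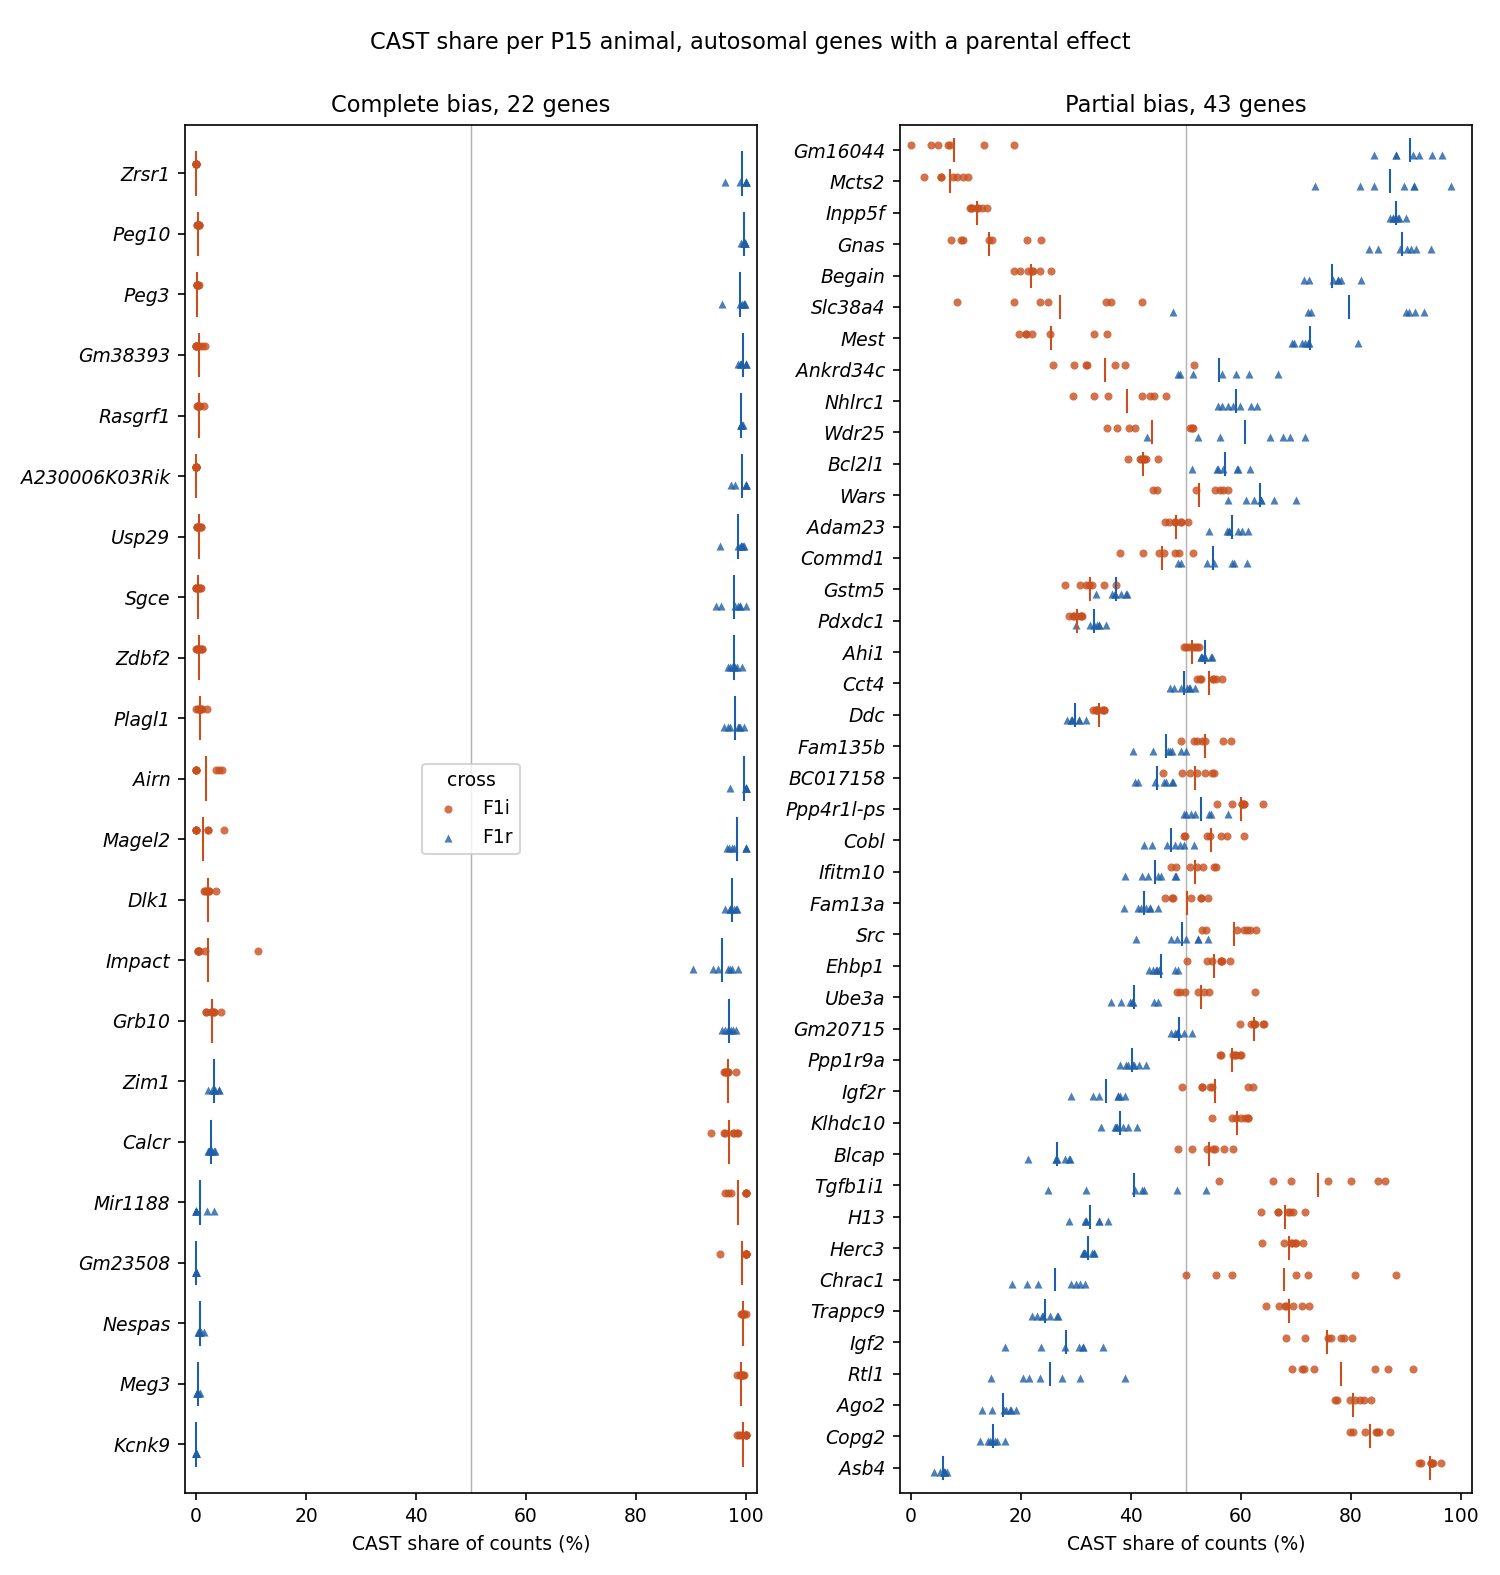
CAST share of a gene's counts (x axis, %) in each P15 animal, for the 22 complete and 43 partial genes (rows), without 3 loci that resemble mitochondrial sequence and without H19. Circles are the 7 F1i animals, triangles the 7 F1r animals and vertical ticks the means. Complete genes sit at the edges in mirror image, while the partial genes run from Asb4 with 94.4% in F1i down to genes whose crosses differ by a few points.

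Complete genes on the Meg3 side were 7. Meg3 itself had a CAST share of 98.3%, 99.3% and 99.7% (lowest, median and highest animal) in F1i and 0.21%, 0.25% and 0.75% in F1r. Each F1i animal was thus nearly all CAST and each F1r animal nearly all C57, and the effect was 7.42 ± 0.09 (SE, n = 7 and 7; adjusted p = 2.8e-49, edgeR quasi-likelihood with Benjamini-Hochberg). Kcnk9, a potassium leak channel, had 98.4%, 100% and 100% in F1i and no CAST count in any F1r animal. Its 368 C57 counts over that cross put C57 at least 123-fold above CAST, with a floor of 3 counts over the cross, and allow a CAST share of up to 0.815%.

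Nespas, annotated as an antisense transcript and overlapping Gnas on the other strand, ran from 99.1% to 100% CAST in F1i and from 0.45% to 1.40% in F1r. Which strand the authors counted is not stated, so its reads cannot be told apart from those of an overlapping Gnas transcript. Mir1188, a microRNA gene, and Gm23508, a small nucleolar RNA gene, both lie inside Rian, a noncoding RNA of the Meg3 cluster, on its strand. Their reads cannot be told apart from those of Rian. Mir1188 and Gm23508 had means of 98.6% ± 1.77 (SD, n = 7) and 99.3% ± 1.80 CAST in F1i. In F1r Mir1188 had 0.76% ± 1.36, and Gm23508 had no CAST count beside 165 C57 counts, which puts C57 at least 55-fold higher. Their mean summed counts were 34.0 and 19.4 in F1i, so a single read moves an animal by several points.

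Calcr, the calcitonin receptor, and Zim1, a zinc finger gene next to Peg3, kept more of the other allele than these. Calcr had 93.6%, 97.6% and 98.5% CAST in F1i and 2.22%, 2.77% and 3.46% in F1r. Zim1 had 96.0%, 96.6% and 98.2% in F1i and 2.16%, 3.23% and 4.26% in F1r. In both genes the crosses stayed far apart, with effects of 5.04 ± 0.08 and 4.86 ± 0.06 (SE), and the minor allele was read in every animal.

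Complete genes on the Peg3 side were 15. Peg3 had 0.12%, 0.23% and 0.53% CAST in F1i and 95.6%, 99.5% and 99.8% in F1r. Usp29, a ubiquitin protease gene that starts beside it on the opposite strand, had 0.14%, 0.61% and 0.91% in F1i and 95.3%, 99.1% and 99.7% in F1r. The crosses did not overlap in either gene and the effects were -7.54 ± 0.13 and -6.84 ± 0.10 (SE; adjusted p = 4.6e-41 and 1.5e-45, edgeR quasi-likelihood with Benjamini-Hochberg).

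Growth and signalling genes of this side include Dlk1, a Notch-like ligand, Grb10, an adaptor of the insulin receptor, and Rasgrf1, an exchange factor for Ras. Dlk1 had 1.39%, 2.06% and 3.55% CAST in F1i and 96.1%, 97.2% and 98.3% in F1r. Grb10 had 1.79%, 2.93% and 4.46% in F1i and 95.6%, 96.8% and 98.2% in F1r. Both were complete by a narrow margin, and neither reached 98% in its mean. Rasgrf1 was tighter, at 0.23% to 1.41% in F1i and 99.0% to 99.4% in F1r, with an effect of -7.10 ± 0.05 (SE).

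Peg10, a gene derived from a retrotransposon, and its neighbour Sgce, which encodes epsilon-sarcoglycan, had effects of -8.10 ± 0.07 and -6.62 ± 0.13 (SE). Peg10 never fell below 99.2% on its favoured allele, whereas Sgce ranged from 94.6% to 100% in F1r. The zinc finger genes Zdbf2 (-6.45 ± 0.08) and Plagl1 (-6.27 ± 0.11) had mean CAST shares of 0.53% ± 0.43 and 0.80% ± 0.63 (SD, n = 7) in F1i. In F1r they had 97.8% ± 0.84 and 97.9% ± 1.38, further from the edge than in F1i.

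Of the Prader-Willi region, Magel2 had 1.34% ± 1.91 CAST in F1i and 98.4% ± 1.58 in F1r. A230006K03Rik, a noncoding RNA there, had no CAST count in F1i, where 242 C57 counts put C57 at least 80.7-fold higher. Gm38393, whose effect was -7.22 ± 0.16 (SE), overlaps Snrpn, Snurf and Snhg14 on the same strand, and its reads cannot be told apart from theirs. Zrsr1, a retrogene of a splicing factor that lies in an intron of Commd1, had 668 C57 counts and no CAST count in F1i, at least 223-fold more C57. Airn, the antisense RNA of Igf2r, ranged from 0% to 4.76% in F1i and from 97.1% to 100% in F1r on mean summed counts of 28.6 and 34.1.

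In some complete genes the minor allele was not spread evenly over the strains. Of the 22 complete genes, 8 also had a strain effect, the ratio averaged over both crosses, against 57.1% of all autosomal genes tested (edgeR quasi-likelihood, Benjamini-Hochberg). These 8 were Peg3, Rasgrf1, Usp29, Sgce, Zdbf2, Plagl1, Impact and Meg3, and in all 8 the effect favoured C57. In these 8 the leftover allele was therefore a larger share where it was C57 than where it was CAST. An example is Zdbf2, with 0.53% CAST left in F1i and 97.8% CAST, hence the rest C57, in F1r. All of the 8 but Meg3 were on the Peg3 side, where leftover C57 is read only in F1r and leftover CAST only in F1i. Strain and cross cannot be told apart there. How many of all genes with a strain effect favoured C57 was not counted.

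Impact, a regulator of the stress kinase GCN2, had the largest SD between animals among the 22 in both crosses. In F1i the CAST share was 0.32%, 0.54% and 11.3% (lowest, median and highest). Replicate 2 gave the highest value, 431 of 3829 reads (95% Wilson interval 10.3% to 12.3%, counting error only), and the next animal had 1.68%. In F1r the range was 90.3% to 98.5%, with replicate 4 lowest (89.4% to 91.2%). The effect was -5.11 ± 0.17 (SE), and -5.89 without F1i replicate 2.

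Peg3 and Usp29 shared a low animal. F1r replicate 3 had 95.6% CAST in Peg3 (11259 reads; 95.2% to 96.0%) and 95.3% in Usp29 (591 reads; 93.2% to 96.7%), while the other 6 F1r animals were at 99.0% to 99.8% and 98.5% to 99.7%. Without that animal the effects were -8.08 and -7.22. Zim1, on the other side of the same domain, had 3.19% CAST in this animal, inside the range of the other F1r animals. Over all 22 complete genes the median share of the less used allele was 1.60% in F1r replicate 3, against 0.23% to 1.08% in the other 13 animals.

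The start sites of Peg3 and Usp29 are shown because both genes moved together in 1 animal and share a promoter region, which is methylated on 1 parental copy in the known biology of this domain. Both windows come from RefSeq on GRCm38.p6, run from 250 bases before to 50 after the start on each gene's own strand, and have CG dinucleotides in capitals. Peg3 is at chr7:6730370-6730669 on the minus strand and Usp29 at chr7:6730333-6730632 on the plus strand, so 263 bases are common to both and appear as reverse complements.
Peg3: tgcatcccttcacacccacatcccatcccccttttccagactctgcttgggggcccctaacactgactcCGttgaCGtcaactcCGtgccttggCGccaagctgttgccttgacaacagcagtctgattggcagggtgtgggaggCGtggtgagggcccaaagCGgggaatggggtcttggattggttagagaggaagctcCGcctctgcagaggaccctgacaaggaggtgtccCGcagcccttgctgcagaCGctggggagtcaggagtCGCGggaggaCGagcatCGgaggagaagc
Usp29: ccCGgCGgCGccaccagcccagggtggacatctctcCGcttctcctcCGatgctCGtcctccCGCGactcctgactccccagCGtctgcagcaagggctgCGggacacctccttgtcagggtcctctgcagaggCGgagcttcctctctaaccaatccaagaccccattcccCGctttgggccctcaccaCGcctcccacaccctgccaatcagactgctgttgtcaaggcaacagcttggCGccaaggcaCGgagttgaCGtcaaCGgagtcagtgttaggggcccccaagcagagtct
The windows hold 13 and 17 CG dinucleotides, and 37.9% and 31.4% of 32851 RefSeq promoter windows of this length hold as many or more. Among complete genes the median was 15 (14 of 22 had a window), among partial genes 24 (30 of 46) and among all autosomal genes tested 23. No methylation was measured in these files.

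**Figure D2:**
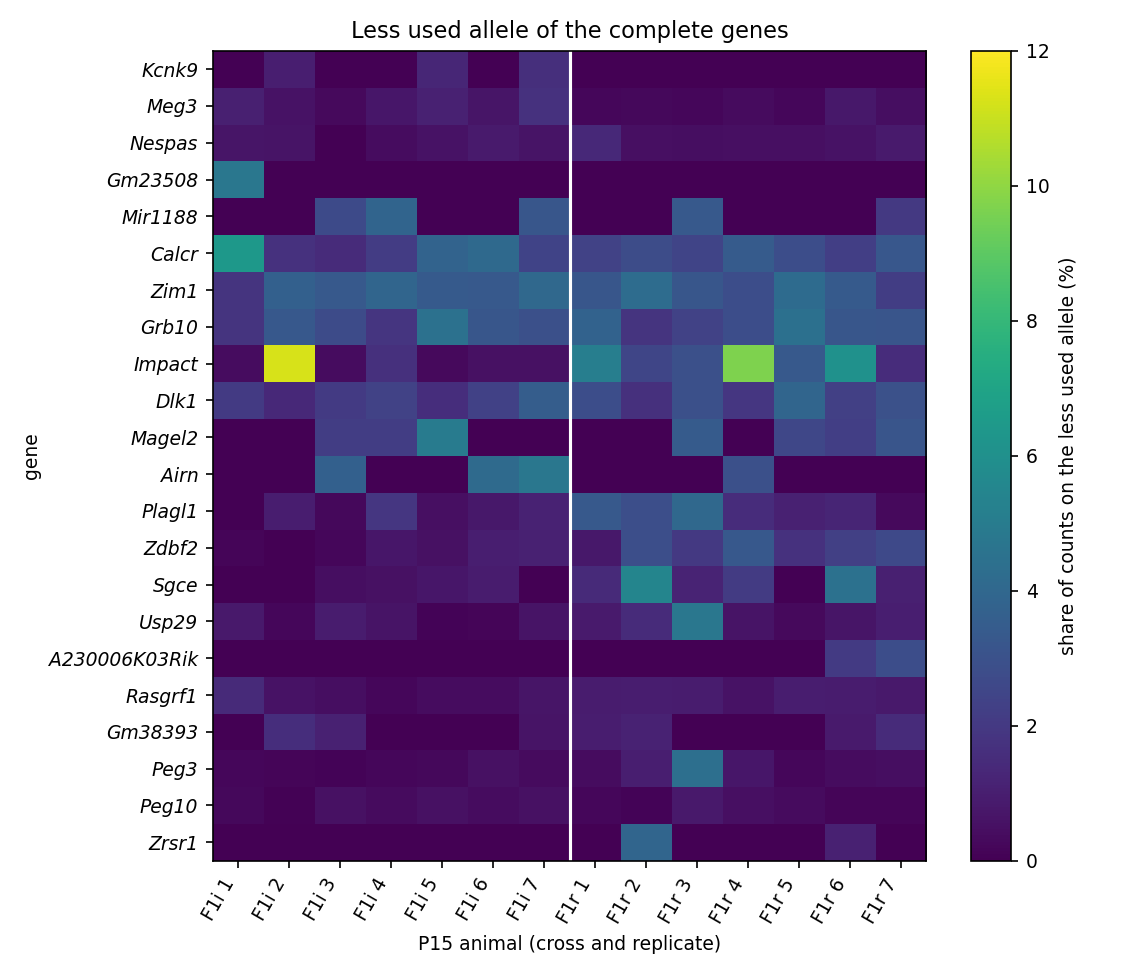
Share of counts on the less used allele (colour, 0 to 12%) of the 22 complete genes (rows) in the 14 P15 animals (columns, F1i left and F1r right of the white line). Most cells are near 0, with single bright cells for Impact in F1i 2 (11.3%) and F1r 4, and a pair for Peg3 and Usp29 in F1r 3.

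Partial genes formed a continuous range below the complete ones. The class includes Gm11410, Gm13339 and Gm13340, which are annotated as pseudogenes and resemble mitochondrial sequence. They had a CAST majority in both crosses and nearly all of their counts in F1i, where Gm13340 summed to 17572 CPM against 32.3 in F1r, so they are left out of the ranges that follow. Over the other 43, the favoured allele held between 51.2% and 94.3% on average over the 14 animals, with a median of 59.9%. It was under 60% in 23 genes, between 60% and 75% in 10 and above that in 10. The crosses did not overlap in 33 of the 46 partial genes and in all 22 complete ones, against 0.563% of all autosomal genes tested.

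Asb4, which encodes an adaptor of a ubiquitin ligase, lay just outside the complete class. Its CAST share was 92.4%, 94.6% and 96.4% in F1i and 4.26%, 6.09% and 6.64% in F1r, an effect of 4.05 ± 0.05 (SE). Impact lay just inside, with means of 2.16% in F1i and 95.6% in F1r. The threshold thus falls within a gradual series and not in a gap.

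Strong partial genes on the Meg3 side were Copg2, a coat protein of transport vesicles, and Ago2, the slicing argonaute of small RNA silencing. Copg2 had 79.9%, 84.6% and 87.1% CAST in F1i and 12.5%, 14.8% and 17.1% in F1r (effect 2.42 ± 0.05 SE, adjusted p = 8.3e-39, edgeR quasi-likelihood with Benjamini-Hochberg). Ago2 had 77.2%, 80.8% and 83.7% in F1i and 13%, 17.3% and 19.2% in F1r, an effect of 2.18 ± 0.05. In both, roughly the same minority from the other allele was read in each of the 14 animals.

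Ago2 has its genomic neighbours on the same side. Kcnk9, complete as described, and Trappc9 (1.39 ± 0.04 SE), a vesicle tethering factor, belong to the cluster, and so does Chrac1 (1.25 ± 0.17), a histone-fold protein that overlaps Ago2 on the opposite strand. Trappc9 had 64.6% to 72.4% CAST in F1i and 22.1% to 26.8% in F1r, while Chrac1 scattered from 50.0% to 88.2% and from 18.4% to 31.6% on mean summed counts of 21.7 and 26.9. Ptk2, the last tested gene of that list, had 0.02 ± 0.04 with an adjusted p of 1.

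Strong partial genes on the Peg3 side were Inpp5f, an inositol phosphatase, Gnas, the stimulatory G protein subunit, and Mcts2, a retrogene within H13. Inpp5f had 10.7%, 11.97% and 13.8% CAST in F1i and 87.1%, 88.2% and 89.95% in F1r, an effect of -2.89 ± 0.03 (SE). Gnas had 7.27%, 14.2% and 23.7% in F1i and 83.3%, 90.2% and 94.6% in F1r (-2.87 ± 0.11). Its mean summed counts were 90.4 and 87.4. Gnas overlaps Nespas on the opposite strand, so these reads cannot be assigned to 1 transcript of the locus. Mcts2 had 2.44% to 10.45% and 73.5% to 98.2% (-3.18 ± 0.15), wider in F1r than in F1i. It lies on the strand of H13, which was on the Meg3 side, and the reads of this pair cannot be told apart here. Gm16044, a processed pseudogene inside Inpp5f on its strand, had -3.48 ± 0.21 on mean summed counts of 25.4 and 22.3.

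Begain, a postsynaptic scaffold partner beside Dlk1, had 18.8%, 22.1% and 25.4% CAST in F1i and 71.6%, 77.6% and 81.8% in F1r. Mest, a hydrolase-like gene, had 19.6% to 35.7% and 69.2% to 81.3%. The crosses stood apart in both, with effects of -1.78 ± 0.05 and -1.49 ± 0.09 (SE). Slc38a4, an amino acid transporter, had 8.33% to 42.1% in F1i and 47.6% to 93.3% in F1r on mean summed counts of 23.0 and 21.9, so its effect of -1.68 ± 0.21 is loosely placed.

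Igf2 and Rtl1 are listed as paternally expressed and were on the Meg3 side. Igf2, the growth factor, had 68.3%, 76.5% and 80.2% CAST in F1i and 17.1%, 30.5% and 34.9% in F1r (1.47 ± 0.11 SE). Rtl1, a retrotransposon-like gene, had 69.2%, 73.2% and 91.3% in F1i and 14.6%, 23.5% and 39.0% in F1r (1.59 ± 0.14). There are 6 microRNA genes on the opposite strand of Rtl1, and without the counting strand their precursor RNA and Rtl1 cannot be told apart. H19, the noncoding partner of Igf2, was set apart: all 286 of its F1i counts were CAST, while F1r had 8.9 counts an animal and 22.6% ± 19.3 (SD, n = 7) CAST.

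Intermediate genes of the Meg3 side were H13, a signal peptide peptidase (1.08 ± 0.04 SE), Herc3, a ubiquitin ligase (1.10 ± 0.03), Blcap (0.86 ± 0.05) and Klhdc10 (0.63 ± 0.03). H13 and Herc3 were near mirror images, with mean CAST shares of 68.0% ± 2.54 and 68.7% ± 2.40 (SD, n = 7) in F1i and 32.6% ± 2.38 and 32.2% ± 0.94 in F1r. Blcap was not: it had 54.2% ± 3.40 in F1i and 26.6% ± 2.58 in F1r, and a strain effect of -0.62. Its parental bias thus shows as a C57 majority in F1r and near balance in F1i. Klhdc10 had 54.8%, 60.1% and 61.3% in F1i and 34.5%, 37.6% and 41.1% in F1r, without overlap. In the annotation H13 overlaps Mcts2 on the same strand, Herc3 overlaps Nap1l5 on the opposite strand, and Blcap overlaps Nnat. The reads of each pair cannot be told apart here.

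Ppp1r9a, which encodes the spine protein neurabin, and Igf2r, the receptor that clears IGF2, had effects of 0.53 ± 0.02 and 0.56 ± 0.07 (SE). Ppp1r9a had 56.2%, 59.0% and 60% CAST in F1i and 38.1%, 40.3% and 42.7% in F1r. Igf2r had 49.3%, 54.5% and 62.1% in F1i and 29.1%, 37.6% and 38.9% in F1r, without overlap. Airn, complete on the Peg3 side, overlaps Igf2r on the opposite strand, and their reads cannot be told apart here. Bcl2l1, the survival factor Bcl-x, was on the other side with -0.44 ± 0.05, at 39.5% to 45.0% and 51.1% to 61.6%.

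Ddc, the decarboxylase that makes serotonin and dopamine, had a small and even effect. Its CAST share was 33.1%, 33.8% and 35.1% in F1i and 28.3%, 29.3% and 31.8% in F1r, so every F1i animal was above every F1r animal. The parental effect of 0.14 ± 0.02 (SE; adjusted p = 2.2e-05, edgeR quasi-likelihood with Benjamini-Hochberg) sits beside a strain effect of -1.09. In 6 partial genes the same strain held the majority in both crosses, CAST in 3 and C57 in 3, Ddc among the latter. In 37 of the 43 the favoured allele was above 50% in both.

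Outside the lists 24 genes passed. The largest effects among the protein-coding ones apart from Gm38393 were Tgfb1i1 (0.95 ± 0.16 SE), a focal adhesion protein, Ankrd34c (-0.63 ± 0.12), Nhlrc1 (-0.55 ± 0.08), the ubiquitin ligase malin, and Wdr25 (-0.49 ± 0.12). Nhlrc1 had 29.5%, 42.0% and 46.5% CAST in F1i and 55.9%, 58.5% and 62.9% in F1r, and no listed gene was tested on its chromosome. Gm20715 (0.40 ± 0.03), next to Zim1 in the gene order, had 59.9% to 64.2% in F1i and 47.3% to 51.2% in F1r.

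Most of these genes sit beside or within listed genes. Along the order of tested genes on each chromosome, 16 of the 24 (66.7%) were within 5 steps of a listed gene, where 226 of all 11300 unlisted genes (2.0%) were. At 1 step, 13 of 52 unlisted genes passed (25.0%), against 0.0978% of the others. These 13 include Gm38393, which overlaps Snrpn and Snurf, Gm23508 inside Rian and Gm16044 inside Inpp5f, all on the same strand. Wdr25, which overlaps Wars, is also among them. The reads of these genes cannot be told apart from those of the listed genes they overlap, so the count is not of separate neighbours alone. Of the 16, 10 had the sign of their nearest listed gene. The step rule was set after the values were seen, and the counts describe these genes without a test.

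Neighbours with the same sign were Adam23 (-0.30 ± 0.03 SE), a synaptic membrane protein, beside Zdbf2, Fam13a (0.23 ± 0.04) beside Herc3, Src (0.27 ± 0.07), the tyrosine kinase, beside Blcap, and Ankrd34c beside Rasgrf1. Adam23 had 46.1%, 48.0% and 50.4% CAST in F1i and 54.2%, 57.9% and 61.4% in F1r, with no overlap. The crosses overlapped in Src, at 52.9% to 62.7% in F1i and 40.9% to 54.0% in F1r. They overlapped in Ankrd34c too, at 25.8% to 51.4% and 48.6% to 66.7% on mean summed counts of 49.3 and 43.9. Wdr25 also overlapped, with 35.6%, 40.7% and 51.4% CAST in F1i and 42.9%, 65.3% and 71.7% in F1r. On chromosome 12 the effects ran from Wars (-0.34 ± 0.05), a tRNA synthetase, over Wdr25 and Begain to Dlk1 (-5.38), and turned to the Meg3 side at Meg3. Wars and Wdr25 overlap, so they are not separate points of this run.

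Some neighbours had the opposite sign. Cobl (0.21 ± 0.05 SE), an actin nucleator, and Ddc, on either side of Grb10, were on the Meg3 side while Grb10 was complete on the Peg3 side. Cct4 (0.14 ± 0.03), a chaperonin subunit, and Ehbp1 (0.28 ± 0.04) were positive beside Zrsr1 at -8.40 and Commd1 at -0.29 ± 0.07. Cobl had 49.7% to 60.6% CAST in F1i and 42.5% to 51.5% in F1r, so its crosses overlapped. Cct4 had 52.1% to 56.5% CAST in F1i and 47.0% to 51.7% in F1r, and Ehbp1 50.3% to 57.9% and 43.3% to 48.6%, neither with overlap. Src, Cobl, Wdr25 and Commd1 did not pass under DESeq2, and these and Cct4 did not under limma.

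The remaining unlisted genes had small effects. Fam135b (0.19 ± 0.05 SE) beside Kcnk9, BC017158 (0.20 ± 0.05) beside Inpp5f and Ifitm10 (0.22 ± 0.05) near H19 were on the Meg3 side, as was the pseudogene Ppp4r1l-ps (0.21 ± 0.04), 6 steps from Nespas. Gstm5, a glutathione transferase (-0.14 ± 0.04), Pdxdc1 (-0.11 ± 0.03) and Ahi1, a ciliary protein (-0.07 ± 0.02), were on the Peg3 side, with adjusted p of 0.0337, 0.0448 and 0.0347 (edgeR quasi-likelihood with Benjamini-Hochberg). The nearest tested listed gene to Ahi1 was Plagl1, 24 steps away, and no listed gene was tested on the chromosomes of Gstm5 and Pdxdc1. Pdxdc1 had 28.7% to 31.1% CAST in F1i and 30.0% to 35.5% in F1r, so its crosses overlapped, whereas those of Ahi1 did not, at 49.6% to 52.4% and 52.7% to 54.7%. Of these 7 genes, all but Ppp4r1l-ps lost their call with DESeq2. Gstm5, Pdxdc1, Ahi1, BC017158 and Ifitm10 each overlap another annotated gene, whose reads cannot be told apart from theirs here. The same holds for Adam23, Cobl, Fam13a, Gm20715 and Wdr25 above.

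**Figure D3:**
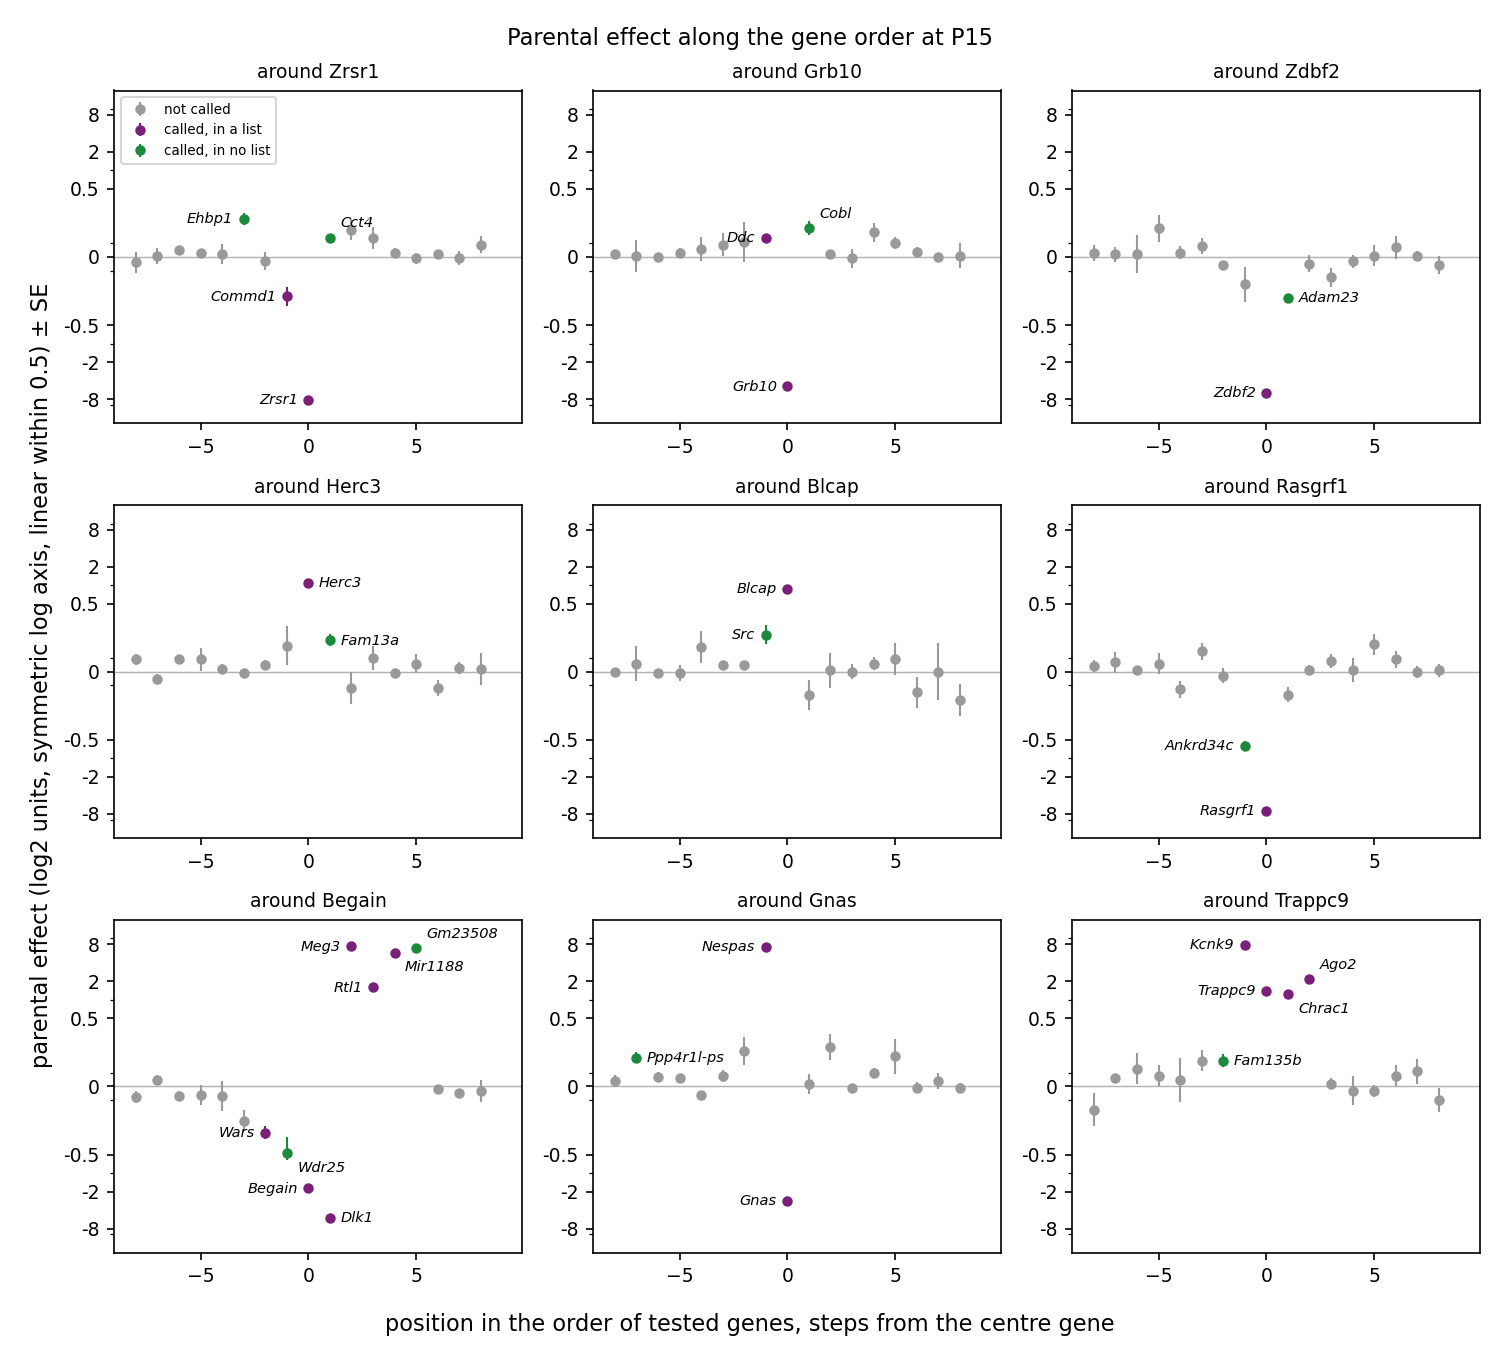
Parental effect (y axis, log2 units on a symmetric log scale, with SE) of tested genes by their steps in gene order from 9 imprinted genes (x axis). Purple points are listed genes that passed, green points unlisted genes that passed and grey points genes that did not. Green points lie 1 to 7 steps from the centre and within 0.7 of 0 apart from Gm23508, above or below in the sense of their neighbours or against it. The bar of 1 grey gene near Gnas, with only CAST counts, is left out.

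Few genes passed the test for a difference between the crosses in total level, the sum of both alleles. This does not show that the totals were equal. Of 12850 genes tested 6 differed (0.0467%; edgeR quasi-likelihood, Benjamini-Hochberg), with 235 at an unadjusted p under 0.05 and 8 under DESeq2. Of the 22 complete genes 0 did, with 5 at an unadjusted p under 0.05 and 1, Plagl1, under DESeq2. Their log2 differences (F1i minus F1r) lay between -0.63 (A230006K03Rik) and 0.42 (Plagl1, adjusted p = 0.142 with edgeR and 0.00416 with DESeq2), with a median of -0.02 beside -0.01 over all genes. The 6 were 4 pseudogene loci resembling mitochondrial sequence, H19 and Ube3a. H19 was at 5.42 to 8.93 CPM in F1i and 0.996 to 2.96 in F1r, a log2 difference of 2.01 ± 0.21 (SE; adjusted p = 7e-05). In bulk samples, fewer cells of a type and less RNA per cell cannot be told apart.

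Ube3a, the ubiquitin ligase of Angelman syndrome, combined a weak bias with a lower total in F1i. Its total was 19.8 to 30.6 CPM in F1i and 34.0 to 47.0 in F1r with no overlap, a log2 difference of -0.69 ± 0.09 (SE; adjusted p = 0.00189, edgeR quasi-likelihood with Benjamini-Hochberg). By allele, CAST was at 13.2 ± 1.65 CPM (SD, n = 7) in F1i and 16.9 ± 2.56 in F1r, and C57 at 12.1 ± 2.82 and 24.6 ± 2.02. The C57 allele of F1r was thus above the other 3 groups in every animal. The CAST share was 48.4%, 52.2% and 62.5% in F1i and 36.4%, 40.1% and 44.9% in F1r, an effect of 0.34 ± 0.06 (SE). In the annotation 5 genes overlap Ube3a on the other strand, among them the long antisense RNA Snhg14, and with the strand not stated the part of antisense reads in these values was not tested.

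**Figure D4:**
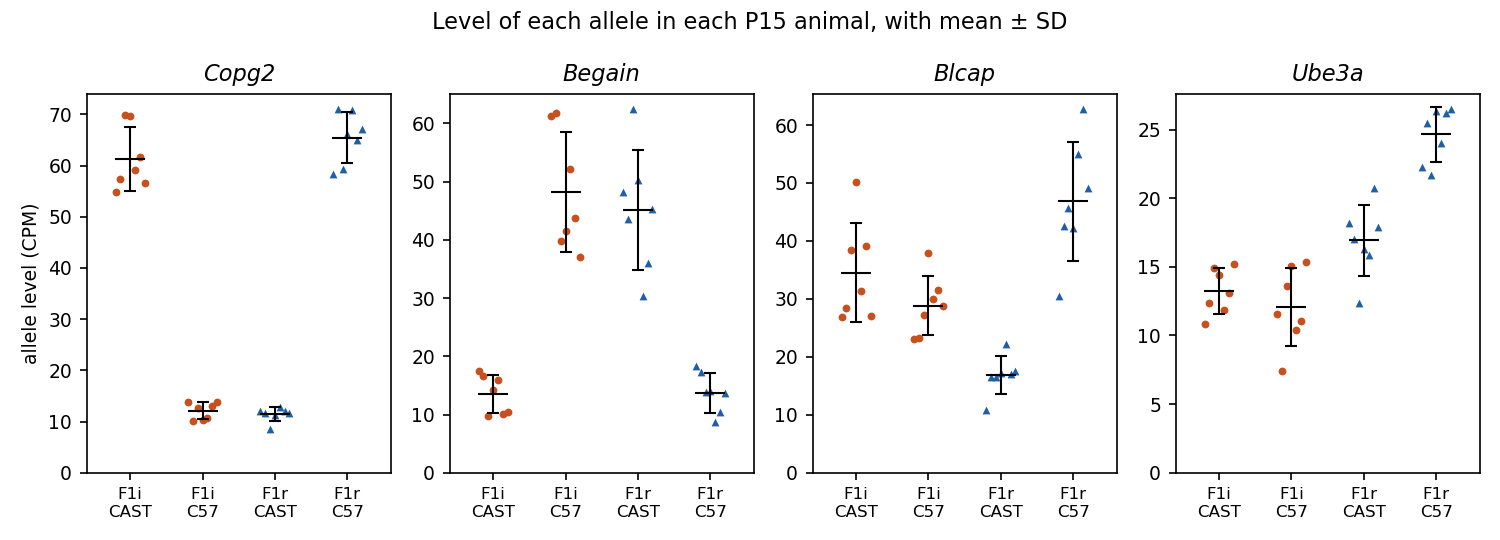
Level of each allele (y axis, CPM of the animal's total) in the 14 P15 animals for 4 partial genes, by cross and allele (x axis). Points are animals and bars mean ± SD. Copg2 and Begain mirror each other between crosses on opposite sides, and Ube3a has a C57 level in F1r (24.6 CPM) above its other 3 groups. Blcap, which also has a strain effect of -0.62, is near balance in F1i and mostly C57 in F1r.

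Against P5, the parental effect differed in 20 of 11068 autosomal genes (0.181%) in a model of all 46 libraries, and 17 of the 20 were listed genes. It was smaller in size at P15 in 13 and larger in 7. Against adults it differed in 14 of 11315 (0.124%), 11 of them listed, and was smaller at P15 in 9 and larger in 5. With limma on the log2 ratio the counts were 36 against P5 and 25 against adults. All tests here are edgeR quasi-likelihood tests with Benjamini-Hochberg adjustment. Both comparisons use the same P15 animals, and adult labels carry a pair of numbers, so adult libraries may not be separate animals.

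Complete genes were steady in side. All 20 that were tested at P5 and all 22 tested in adults passed there on the same side, against 0.831% and 0.903% of all autosomal genes at those ages in either direction. Among the 46 partial genes 41 did so at each age. Pdxdc1 and Src passed at neither of the other ages, and Rtl1 passed in adults on the other side.

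Inpp5f and Mest were far more biased at P5. Inpp5f had 3.14% to 4.16% CAST in F1i and 94.9% to 97.0% in F1r at P5, and 18.2% to 21.7% and 78.8% to 80.9% in adults. Its effect went from -4.66 ± 0.03 (SE) over -2.89 to -2.02 ± 0.02, and P15 differed from P5 by 1.77 (adjusted p = 7.4e-39, edgeR quasi-likelihood with Benjamini-Hochberg) and from adults by -0.86 (2.2e-25). Mest had 4.03% to 7.09% and 90.4% to 97.5% at P5 and 24.6% to 47.2% and 52.5% to 67.4% in adults. Its effect of -4.02 ± 0.08 at P5 differed from P15 by 2.53, and that of -0.63 ± 0.07 in adults by -0.86. P15 was intermediate in both genes. Copg2, biased to the Meg3 side, overlaps Mest on the opposite strand. With the counting strand not stated, the part of Copg2 reads in the Mest values was not tested at any age.

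Other genes with a larger effect at P5 than at P15 were Blcap (1.98 ± 0.04 SE at P5, a difference of -1.12), Gnas (-4.17 ± 0.10, 1.30), Trappc9 (2.10 ± 0.03, -0.71), Ago2 (2.86 ± 0.04, -0.68), H13 (1.48 ± 0.03, -0.41) and Commd1 (-0.95 ± 0.10, 0.66). Each of these genes overlaps another annotated gene, and the part of overlapping reads in these differences was not tested. Blcap went from 74.0% to 78.3% CAST in the F1i animals at P5 to 48.5% to 58.6% at P15, with no overlap. Klhdc10 declined at each step, from 0.85 ± 0.02 at P5 over 0.63 ± 0.03 to 0.37 ± 0.02 in adults, and both differences passed.

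Genes more biased at P15 than at P5 were Grb10, Dlk1, Zim1, Begain, Herc3 and Ppp1r9a. Grb10 had 6.39% to 9.77% CAST in F1i at P5, 1.79% to 4.46% at P15 and 0.90% to 2.65% in adults, and its effect went from -3.60 ± 0.05 (SE) over -5.0 to -5.67 ± 0.05. At P5 it would not have counted as complete, with a mean of 93.2% on the favoured allele in F1r. Herc3 rose from 0.90 ± 0.03 over 1.10 to 1.54 ± 0.03, and Zim1 from 3.88 ± 0.05 to 4.86. Without F1i replicate 2 the differences from P5 of Dlk1 and Herc3 did not pass (adjusted p = 0.0543 and 0.0653, edgeR quasi-likelihood with Benjamini-Hochberg). Begain was largest at P15, with -0.85 ± 0.04 at P5 and -1.41 ± 0.02 in adults, and both differences passed.

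Ube3a and Rtl1 stood out from their own values at both other ages. Ube3a had 64.2% to 72.7% CAST in F1i and 21.4% to 27.4% in F1r at P5, and 57.2% to 73.2% and 24.7% to 39.7% in adults. Its effect of 0.34 at P15 was below 1.36 ± 0.07 (SE) at P5 and 1.03 ± 0.06 in adults, with differences of -1.02 (adjusted p = 1.1e-09, edgeR quasi-likelihood with Benjamini-Hochberg) and -0.69 (9.3e-08). Rtl1 had 35.5% to 51.4% in F1i and 42.1% to 66.7% in F1r at P5, and 24.6% to 44.6% and 55.4% to 81.4% in adults. The effect of Rtl1 was 1.59 ± 0.14 here, beside -0.21 ± 0.12 at P5 and -0.95 ± 0.11 among adults, so the P15 animals were on the Meg3 side and the adults on the Peg3 side. The part of the opposite-strand microRNA precursors in this turn was not tested.

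Impact, Igf2 and Calcr passed the test against adults and not the one against P5. Impact had 0.17% to 0.34% CAST in adult F1i libraries and an effect of -7.10 ± 0.09 (SE), a difference of 1.99 (adjusted p = 0.00015, edgeR quasi-likelihood with Benjamini-Hochberg). Without F1i replicate 2 at P15, the animal with 11.3% CAST, the Impact difference was 1.21 and did not pass (adjusted p = 0.107, same test). Igf2 was at 2.36 ± 0.10 and Calcr at 6.11 ± 0.09 in adults, both larger than at P15, with differences of -0.88 and -1.05. The unlisted genes that differed were Crls1, Pofut1 and Stx16 (adjusted p = 0.0719 without F1i replicate 2) against P5 and the 3 mitochondria-like loci against adults.

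**Figure D5:**
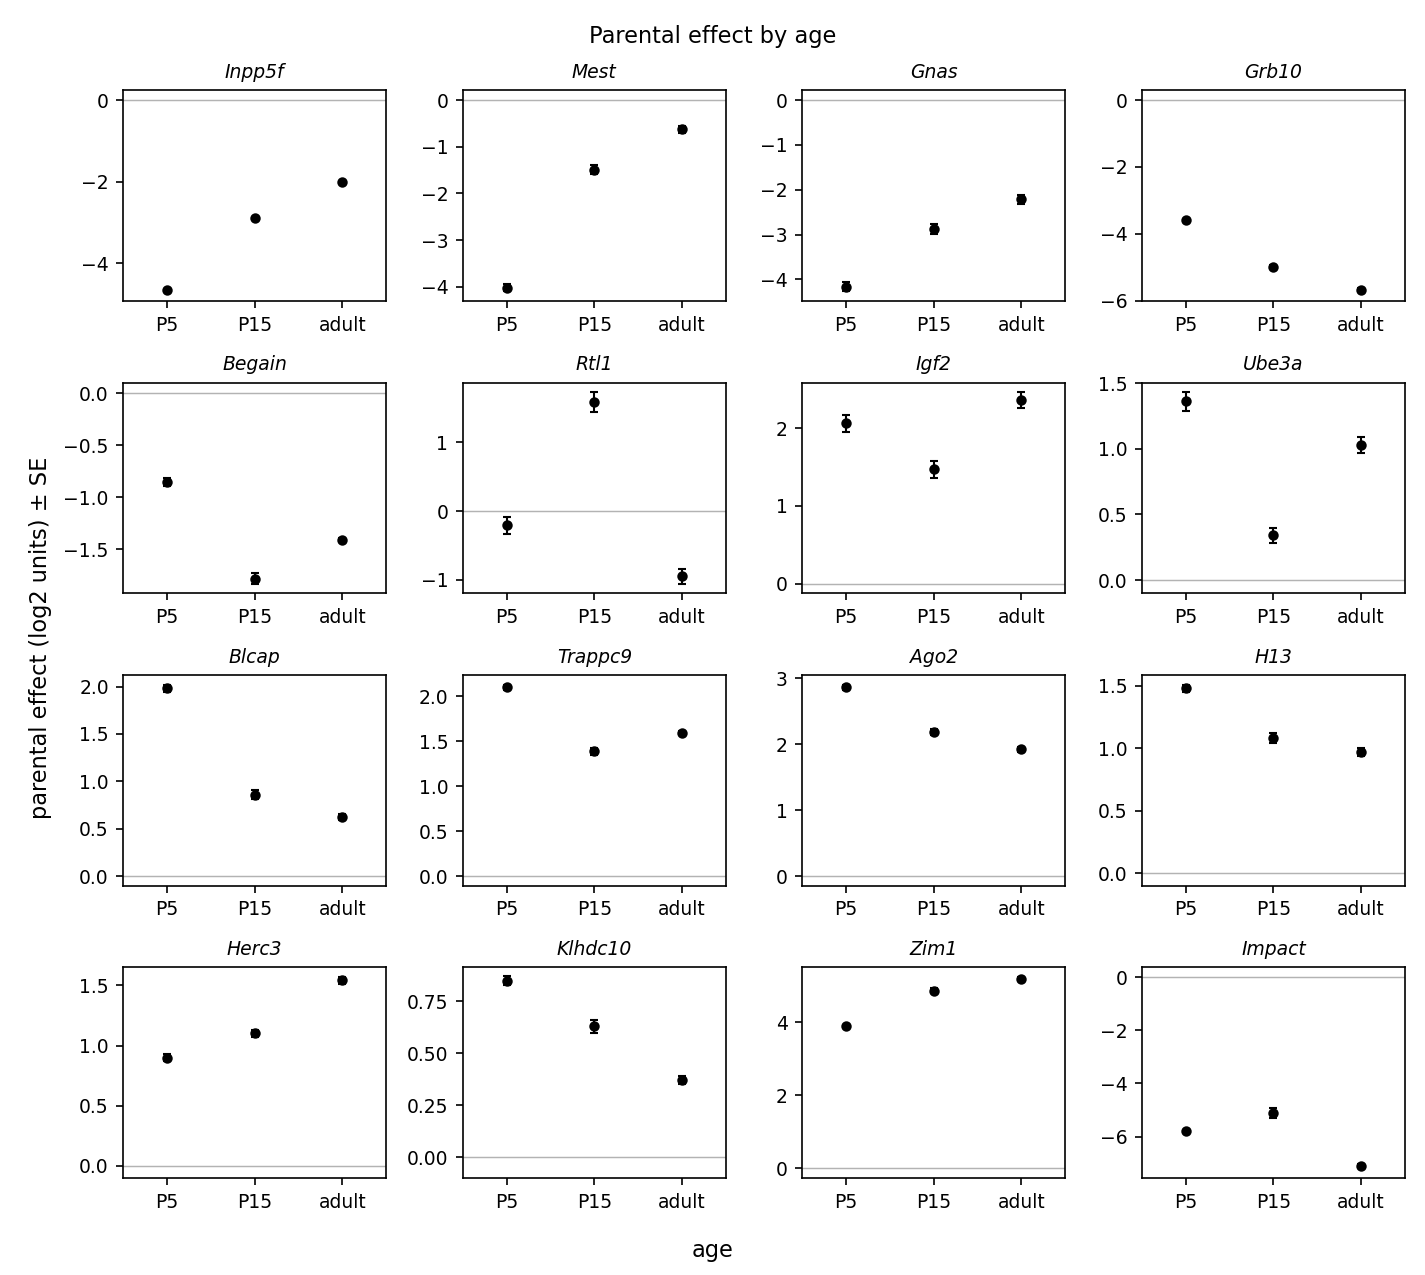
Parental effect (y axis, log2 units, ± SE) by age (x axis) for 16 genes that differed between P15 and another age, each from a fit of its own age. Grey lines mark 0. Inpp5f, Mest and Klhdc10 approach 0 with age, while Grb10, Herc3 and Zim1 move away from it, Zim1 with a difference that passed only against P5. Ube3a, Begain, Rtl1, Trappc9, Igf2 and Impact have their P15 value outside the range of the other ages. Among these, both differences passed only for Ube3a, Begain and Rtl1.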

How the data were processed

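RNA of the dorsal raphe nucleus was column-purified and sequenced as 50 bp single-end TruSeq libraries, per the labels' protocols. The authors deposited raw whole-number counts per gene and allele. Novoalign and mm9 are named in the submitters' processing notes. How reads were assigned to alleles, the treatment of multiple matches and the strand are not given in the sources used here. Symbols, chromosomes and gene order came from GENCODE vM21 (GRCm38) by Ensembl identifier, which matched 14969 of 15499. No mm9 coordinates were used.

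Counts were fitted with edgeR 4.0.16 in R 4.3.3 (quasi-likelihood), 1 column per animal and allele, a term per animal, and the animal's total of both alleles as library size. The 11996 genes whose summed count averaged at least 20 were fitted together (391 of them X-linked and not reported, and 243 without a chromosome and kept out of the counts of autosomal genes), with Benjamini-Hochberg adjustment over all of them. Complete and partial are descriptive classes. Genes with a mean summed count under 10 in a cross were set apart. Age differences came from 1 fit of all 46 libraries. Totals used TMM and filterByExpr. DESeq2 1.42.0 and limma 3.58.1 (pseudocounts 1 and 5) were alternatives, with other count minimums, scaling, thresholds, adjustment and a replicate block. Scripts were tested on simulated data. Summaries used Python 3.11.15.

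The precision follows the counts: the median SE of the effect was 0.112 for the 3343 genes with a mean count under 100, 0.049 over the next 6994 and 0.022 over the deepest 1025. Libraries of 1 cross were compared pairwise by chi-square and none were duplicates. The labels do not say that libraries are separate animals, so p-values measure the spread between these samples. Intervals and floors cover counting error only.

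Members and lists were chosen with earlier results of these data known. Named were every listed gene that passed, the 20 unlisted ones with the largest effect, and for ages every listed gene and the 10 largest others. Gstm5, Pdxdc1, Ahi1 and Cct4 were named after their values were seen.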

Additional observations from a re-analysis of the deposited data

Results flagged for a closer look

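In 12 of 133 groups of 7 animals the highest or lowest CAST share lay apart from the rest by Dixon's criterion, which chance meets in about 1 in 20 groups. The largest departures in animals with many reads were Impact in F1i replicate 2 (11.3%, next 1.68%), Peg3 in F1r replicate 3 (95.6%, next 99.0%) and Usp29 in the same animal (95.3%, next 98.5%). Rasgrf1 lay apart in F1i replicate 1 (1.41%) and, toward a fuller bias, in F1r replicate 4 (99.4%). Zim1 in F1i replicate 1 was at 98.2%, above the others. Among partial genes, Blcap in F1r replicate 6 was at 21.4%, Ube3a in F1i replicate 2 at 62.5% on 96 reads and Mest in F1r replicate 2 at 81.3% on 80 reads. Airn in F1r replicate 4 (97.1%, 34 reads), Gm23508 in F1i replicate 1 (95.2%, 21 reads) and Zrsr1 in F1r replicate 2 (96.1%, 51 reads) rest on 1 or 2 reads of the less used allele.

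The parental effect differed between ages by a contrast of 1 model. P15 minus P5 was 0.30 for Crls1, -0.41 for H13, -0.32 for Pofut1, -1.12 for Blcap, -0.25 for Stx16, 1.30 for Gnas, 0.16 for Ppp1r9a, -0.22 for Klhdc10, 2.53 for Mest and 0.20 for Herc3. It was 0.98 for Zim1, -1.02 for Ube3a, 1.77 for Inpp5f, -1.40 for Grb10, 0.66 for Commd1, -0.93 for Begain, -0.81 for Dlk1, 1.81 for Rtl1, -0.71 for Trappc9 and -0.68 for Ago2. P15 minus adult was -1.41 for Gm13340, -3.76 for Gm13339, -4.42 for Gm11410, -1.05 for Calcr, 0.26 for Klhdc10, -0.86 for Mest and -0.44 for Herc3. It was -0.69 for Ube3a, -0.86 for Inpp5f, -0.88 for Igf2, 0.66 for Grb10, -0.38 for Begain, 2.55 for Rtl1 and 1.99 for Impact.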

How the results depend on the processing

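No gene changed direction under any alternative run. The 69 autosomal calls were 59 with DESeq2, 60 with limma on the log2 ratio (57 of the 69, with Daam2, Gm13341 and Mindy4 added), 48 when a mean summed count of 100 was required, 76 when 1 was, 68 with each allele column scaled by its own TMM factor and 67 when adjusted over autosomal genes alone. DESeq2 lost Ahi1, BC017158, Cobl, Commd1, Fam135b, Gstm5, Ifitm10, Pdxdc1, Src and Wdr25, and limma lost these with Cct4 and Wars. Complete genes numbered 14 instead of 22 when 98% counted as complete, since Calcr, Dlk1, Grb10, Impact, Plagl1, Sgce, Zdbf2 and Zim1 fall between, and 24 at 90%, where Asb4 and Gm16044 join. With limma the effect differed from P5 in 36 genes and from adults in 25, and the cause was not tested. Replicate numbers are shared by the crosses but did not pair the animals (correlation of deviations over 7 pairs 0.00 to 0.04 for allele ratios and -0.32 to 0.66 for totals, with 2 of 7 over 0.1). With the replicate block 66 genes passed, without Commd1, Fam135b and Pdxdc1. Chosen after seeing the data, leaving out F1i replicate 2 gave 65 calls, leaving out F1r replicate 3 gave 63 and leaving out F1i replicates 1 and 2 gave 68 (9 instead of 6 for totals). Among genes with a mean summed count under 100, where the median SE was 0.112, the smallest effect that passed was -0.49 (Wdr25).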

Other observations

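Wars differed in allele balance among the F1i animals. Replicates 1 and 2 had 44.0% and 44.7% CAST, below the other 5 at 51.9% to 57.7%, and all F1r animals were at 57.6% to 70.0%. The same 2 animals had the highest totals of the cross for Dlk1 (173.6 and 177.6 CPM, others 56.0 to 120.6) and for Kcnk9 (15.1 and 20.6 CPM, others 5.60 to 11.3), which are complete on opposite sides. These 2 libraries also stood apart from the rest of the cross in their gene totals as a whole, and without them the effect of Wars was -0.24 in place of -0.34. The values were picked after they were seen, and the part of that overall difference in them was not tested.

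Of the identifiers without a chromosome in the annotation used, 5 passed the same test with effects of -6.90, -6.27, 2.91, 6.67 and 7.36. They carry no symbol and were not counted as members.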
